A study of Mus musculus with 6 samples.

Results

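The genes described here are 9 Wnt ligands, Wnt2, Wnt2b, Wnt4, Wnt5a, Wnt5b, Wnt9a, Wnt10b, Wnt11 and Wnt16, taken by symbol from a count table of 25239 mouse genes. All 9 had a row, and all 9 were among the 14065 genes that passed the filter on low counts. They were compared between 3 libraries of quiescent primary pulmonary fibroblasts and 3 of the same cell type made senescent with Nutlin 3a. In senescent libraries 2 ligands were higher (Wnt11 and Wnt10b), 5 were lower (Wnt16, Wnt4, Wnt5a, Wnt5b and Wnt9a), and Wnt2 and Wnt2b did not pass the test. Of all tested genes 36.7% were higher and 37.8% lower at the same threshold, an adjusted p under 0.05 in edgeR's quasi-likelihood test, and 74.5% in either direction. The share of ligands called was near that background, so the count alone says little about the ligands. Beyond 2-fold were 2 ligands in each direction (Wnt10b and Wnt11 higher, Wnt4 and Wnt16 lower), where 11.0% of all tested genes were higher and 14.3% lower beyond 2-fold, 25.3% together. Wnt10b and Wnt16 passed the filter only through the group where each is high, so their calls are no support for a difference.

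Wnt proteins are secreted, lipid-modified signals that act over short distances. In the endoplasmic reticulum the acyltransferase Porcn attaches a fatty acid to a conserved serine, and the carrier Wls takes the ligand to the cell surface. There it binds a Frizzled receptor with a co-receptor: Lrp5 or Lrp6 lead to stabilised beta-catenin and TCF/LEF-driven transcription, whereas Ror1, Ror2, Ryk and Ptk7 serve beta-catenin-independent branches such as planar cell polarity. In the lung, mesenchymal Wnt ligands pattern the developing airways and maintain epithelial progenitors, and fibroblasts both make and receive them.

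Both groups were mouse primary pulmonary fibroblasts grown with 10% serum at 5% oxygen. The labels give the cell cycle state as Quiescence or as Nutlin 3a-induced senescent and name no strain, age, sex or genotype. The induction text lists RO3306, a Cdk1 inhibitor used for synchronisation, for 16 hours. It goes on with 48 hours of Nutlin 3a, which separates p53 from Mdm2, and ends with the Plk1 inhibitor BI-2536 at 100 nM to remove cells that still divide, 12 days in all. That text also stands on the quiescent samples, and the sources used here do not give how quiescence was reached. Whether the replicates are separate cultures or animals is likewise unstated. The p-values therefore reflect spread among these libraries alone, and that spread may be technical.

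Libraries held 93736593 to 109706025 counts, of which 18219831 to 21386546 lay outside Rn45s, Lars2 and Mir6236, called the ribosomal rows here. Levels are given as counts per 1000000 counts of that remainder (CPM) after TMM scaling, so 1 count was worth 0.0443 to 0.0588 CPM. Senescent replicate 3 stood apart: its median absolute log2 difference from the other senescent libraries was 0.149 and 0.167, against 0.0922 between those libraries and 0.0807 to 0.0900 among quiescent libraries. All 10 fibroblast markers, such as Col1a1 and Pdgfra, were above 1 CPM in every library. Their levels differed between the groups, with 4 higher and 5 lower in senescent libraries. Thy1 was among the higher (mean 34.2 to 224 CPM) and Pdgfra among the lower (1153 to 422 CPM), and Col1a1 was not called. Of 12 epithelial markers, 9 stayed under 1 CPM in every library, Epcam and Cdh1 among them and Nkx2-1 at 0 throughout, but summed epithelial markers were 8.09 to 8.17 CPM in quiescent and 32.9 to 43.0 CPM in senescent libraries, most of it Krt19. Of 9 macrophage and leukocyte markers, 5 were tested and all 5 were higher in senescent libraries, with sums of 20.9 to 22.3 and 57.2 to 75.5 CPM, while Ptprc, Adgre1 and Marco stayed under 1 CPM. Summed smooth muscle and pericyte markers were 537 to 643 and 1126 to 1701 CPM, with 6 of 9 higher and 2 lower. Endothelial sums were 27.1 to 29.9 and 17.97 to 26.3 CPM with Pecam1, Cldn5, Emcn and Tie1 under 1 CPM. Of the 4 tested endothelial markers, Cdh5 was higher (mean 1.23 to 6.11 CPM) and Tek lower (17.9 to 2.80 CPM). Kdr and Vwf were not called. Mesothelial sums were 55.4 to 63.5 and 56.9 to 69.4 CPM, with 3 of 8 markers lower and 1 higher. The higher one was Krt19 (mean 4.45 to 34.6 CPM), which also stands in the epithelial list. Lower were Rspo1 (14.9 to 0.809 CPM), Upk3b (17.6 to 5.65 CPM) and Msln (2.95 to 1.84 CPM). The near-equal mesothelial sums thus hold changes in both directions. All 4 markers of dividing cells were lower in senescent libraries (590 to 620 against 129 to 154 CPM in sum). In the quiescent libraries Mki67 and Top2a averaged 277 CPM each, so transcripts of dividing cells were plentiful there. Quiescent is therefore used here as the labels' name for the group and not as a state shown by these markers. The part of other cell types or of division in the ligand changes was not tested, and in bulk RNA fewer cells of a type and less RNA per cell cannot be told apart.

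The ligands share features that the choice by symbol did not use. Their longest coding sequences ran from 351 codons (Wnt4) to 389 (Wnt2b and Wnt10b), with 24 to 26 cysteine codons each. Each of these sequences, taken from GENCODE M21, held exactly 1 match to the 10-codon Wnt signature, in which a serine codon marks the residue that Porcn acylates. Of its 30 bases, 13 were the same in all 9 genes. The stretches are shown for 6 ligands, 5′ to 3′, to let the most and least alike be compared, with the serine codon in capitals.
Wnt2: tgcaagtgtcatggtgtgAGTggctcctgt
Wnt2b: tgcaagtgtcacggtgtgAGTggctcctgt
Wnt5a: tgtaagtgtcatggagtgTCTggctcctgt
Wnt9a: tgcaaatgccatggtgtgTCTggctcctgc
Wnt11: tgtaaatgccatggggtgTCTggctcctgc
Wnt10b: tgcaaatgccatggaacgTCAggcagctgc
Wnt2 and Wnt2b had 29 identical bases of 30, and Wnt9a and Wnt11 had 28, although Wnt9a was lower and Wnt11 higher in senescent libraries. Wnt2b and Wnt10b were the least alike pair, with 18. The serine codon was AGT in Wnt2 and Wnt2b and began with TC in the 4 other ligands shown. The sources used here do not give how reads that match more than 1 gene were counted.

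By the rule that a mean of at least 1 CPM counts as expressed, 8 ligands were expressed in quiescent libraries and 7 in senescent ones. Wnt10b was low in both groups, with a count in every library. In the senescent group the line fell between ligands whose libraries overlapped. There Wnt4 counted as expressed at a mean of 1.15 CPM, with 0.764 CPM in senescent replicate 3. Wnt10b averaged 0.936 CPM, with 1.43 CPM in that library. Wnt16 was expressed in quiescent libraries and low in senescent ones. Divided by exon length (GENCODE M21, all exons merged) to compare genes, the order in quiescent cells was Wnt5a at 14.2 ± 0.255 CPM per kilobase (SD, n = 3), Wnt9a at 3.88 ± 0.167, Wnt2 at 1.27 ± 0.178, Wnt5b at 1.12 ± 0.207, Wnt4 at 0.887 ± 0.131, Wnt2b at 0.805 ± 0.139, Wnt11 at 0.790 ± 0.0348, Wnt16 at 0.508 ± 0.125 and Wnt10b at 0.0276 ± 0.0123. From Wnt2 to Wnt11 the libraries of each neighbouring pair overlapped, so that stretch of the order is not resolved. In senescent cells Wnt5a still led at 7.19 ± 0.711, followed by Wnt11 at 2.97 ± 0.754 and Wnt9a at 2.92 ± 0.539, whose libraries overlapped. Then came Wnt2 at 1.14 ± 0.0403, Wnt2b at 0.741 ± 0.111 and Wnt5b at 0.734 ± 0.0886 (these last overlapping), and Wnt10b at 0.275 ± 0.125 overlapping Wnt4 at 0.274 ± 0.0913, with Wnt16 lowest at 0.0335 ± 0.0192.

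**Figure D1:**
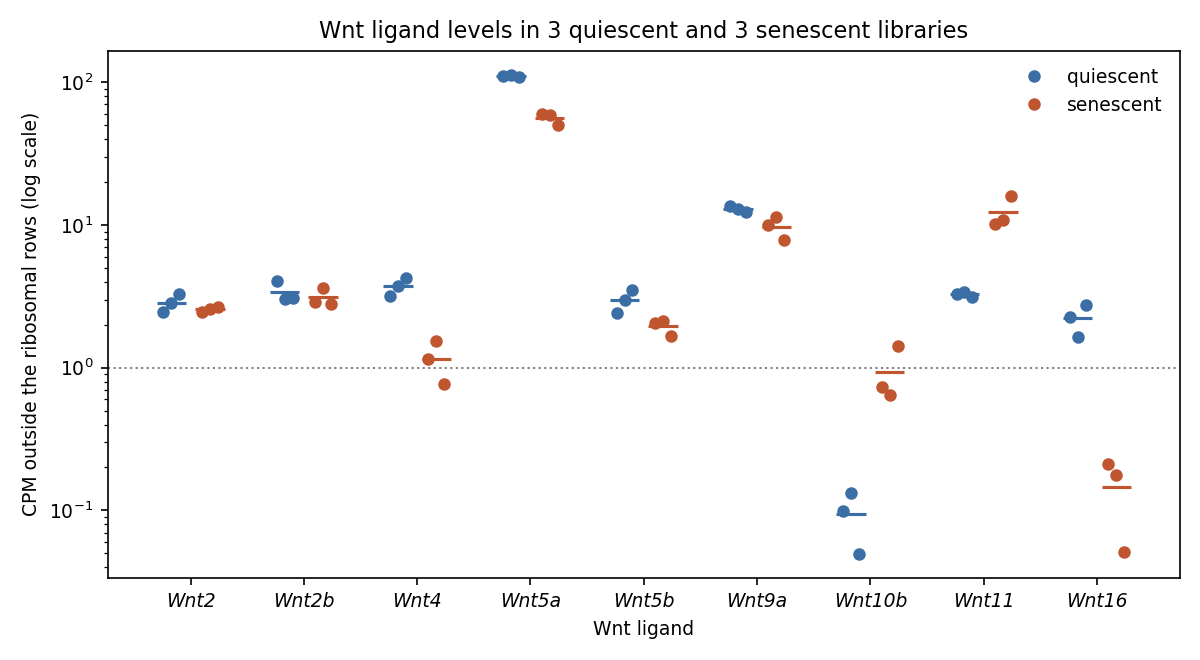
CPM outside the ribosomal rows on a log axis for each Wnt ligand. Points are the 3 quiescent (blue) and 3 senescent (orange) libraries, short bars are group means and the dotted line is 1 CPM; Wnt5a is highest in every library, Wnt11 and Wnt10b are higher and Wnt16 and Wnt4 lower in senescent libraries.

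Wnt5a is the best-known ligand of the beta-catenin-independent branch and shapes the distal lung through Ror receptors. It lies on chromosome 14 (28504750 to 28527448, plus strand, GRCm38). Its level was 110.3, 113 and 109 CPM in the quiescent libraries and 59.9, 58.9 and 49.8 CPM in the senescent ones. The groups did not overlap. That held for all 7 called ligands, 2 higher and 5 lower, and for 78.2% of all tested genes (38.2% higher and 40.0% lower). The mean went from 111 ± 2.00 to 56.2 ± 5.56 CPM (SD, n = 3), and the fitted log2 fold change was -0.98 ± 0.07 (standard error; adjusted p = 1.18e-07, edgeR's quasi-likelihood test with Benjamini-Hochberg adjustment). That is a 1.97-fold lower level of the most abundant ligand; 14.7% of all tested genes had a lower log2 fold change. A gene model on the opposite strand overlaps 358 bases (4.58%) of its exons, and whether counting used the strand is not stated.

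Wnt5b, the close relative of Wnt5a, lies on chromosome 6 (119432531 to 119544347, minus strand). It measured 2.43, 2.97 and 3.52 CPM in quiescent and 2.05, 2.12 and 1.68 CPM in senescent libraries. The gap between the groups was narrow. Its log2 fold change was -0.61 (standard error 0.19, adjusted p = 0.0136 in edgeR), and the call was lost in DESeq2 (adjusted p = 0.0597) and without quiescent replicate 3 (-0.48, adjusted p = 0.0644 in edgeR).

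Wnt11, a ligand of convergent extension and of branching in the kidney, went the other way. It lies on chromosome 7 (98835112 to 98855195, plus strand). It measured 3.27, 3.41 and 3.13 CPM in quiescent libraries and 10.2, 10.8 and 15.9 CPM in senescent ones. The groups were far apart, and senescent replicate 3 was the highest. The mean rose to 12.3 ± 3.12 CPM, 3.77-fold by the fit, a log2 fold change of 1.92 (standard error 0.18, adjusted p = 3.06e-06 in edgeR) and 1.69 without senescent replicate 3. Only 4.59% of tested genes had a higher log2 fold change. An opposite-strand gene model overlaps 364 bases (8.80%) of its exons.

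RefSeq's promoter table (GRCm38.p6, 250 bases before to 50 after the start) held 11 windows for 8 of the 9 ligands and none for Wnt5a. Each was searched on both strands for AP-1 sites (TGANTCA), TCF/LEF cores (CTTTGAA, then CTTTGAT, then CTTTGTA, then CTTTGTT), GC boxes (GGGCGG) and TATA boxes (TATAAA), with overlaps allowed. Of all 32851 promoters of 300 bases, 7.81%, 16.9%, 35.7% and 13.6% held these in that order. Among the ligands GC boxes stood in 8 windows of 6 ligands, a TCF/LEF core in 2 windows (Wnt11 and Wnt5b), and an AP-1 site in 1 window of Wnt5b. GC content ran from 53.0% to 84.3%, against a median of 52.7% over all promoters. The windows of Wnt11 (chr7:98834862-98835161, plus strand), Wnt4 (chr4:137277385-137277684, plus strand) and Wnt16 (chr6:22287977-22288276, plus strand) are shown because these are the expressed ligands that differed beyond 2-fold; capitals mark any match.
Wnt11: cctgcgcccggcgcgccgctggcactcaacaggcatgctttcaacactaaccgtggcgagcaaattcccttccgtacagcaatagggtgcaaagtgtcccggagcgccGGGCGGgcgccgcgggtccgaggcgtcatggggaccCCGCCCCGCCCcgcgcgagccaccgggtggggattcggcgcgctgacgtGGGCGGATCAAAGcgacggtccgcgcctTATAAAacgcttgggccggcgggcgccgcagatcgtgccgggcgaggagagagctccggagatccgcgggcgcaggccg
Wnt4: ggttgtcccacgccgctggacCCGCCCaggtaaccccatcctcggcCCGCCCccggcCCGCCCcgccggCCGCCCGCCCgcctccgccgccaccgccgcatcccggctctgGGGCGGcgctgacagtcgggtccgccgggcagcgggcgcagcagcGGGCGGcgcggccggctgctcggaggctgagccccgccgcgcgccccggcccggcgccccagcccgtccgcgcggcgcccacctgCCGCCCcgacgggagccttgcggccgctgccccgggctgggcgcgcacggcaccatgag
Wnt16: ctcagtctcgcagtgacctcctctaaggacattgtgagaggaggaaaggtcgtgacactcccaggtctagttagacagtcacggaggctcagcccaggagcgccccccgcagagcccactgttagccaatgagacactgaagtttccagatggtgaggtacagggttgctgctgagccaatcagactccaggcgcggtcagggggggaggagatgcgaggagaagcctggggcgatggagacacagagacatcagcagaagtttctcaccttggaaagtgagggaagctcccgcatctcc
Wnt11 has 2 windows in the table, of which the first is shown. It was the only ligand window with a TATA box, which begins at -29 with the start base counted as 0. It also held a TCF/LEF core on the minus strand at -51 and 4 GC boxes, the last of them ending where the TCF/LEF core begins. The second Wnt11 window (chr7:98838595-98838894, plus strand) held 1 GC box and none of the other motifs. The Wnt4 window, 84.3% GC, held 8 GC boxes and no other match, and the Wnt16 window held none of the 4 motifs. These matches are a description of the letters only.

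Wnt4, a ligand of kidney tubule and female reproductive tract development, lies on chromosome 4 (137277489 to 137299726, plus strand). Its raw counts were 64, 84 and 86 in quiescent and 22, 26 and 15 in senescent libraries, or 3.72 ± 0.550 against 1.15 ± 0.383 CPM (SD, n = 3). All senescent libraries lay well below all quiescent ones, with senescent replicate 3 lowest. It fell by 1.70 on the log2 scale (standard error 0.23, adjusted p = 3.82e-05 in edgeR), 3.26-fold, and by 1.47 without senescent replicate 3.

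Wnt16, a regulator of cortical bone that has been reported to rise in some forms of senescence of human fibroblasts, had the lowest log2 fold change of the 9 ligands. It lies on chromosome 6 (22288227 to 22298522, plus strand). It had 46, 37 and 55 counts in quiescent libraries and 4, 3 and 1 in senescent ones, so it passed the filter on low counts only through the quiescent group. The level went from 2.22 ± 0.547 to 0.146 ± 0.0839 CPM (SD, n = 3). Summed over libraries, 138 quiescent counts stood against 8 senescent counts, a 15.3-fold lower level with a 95% counting interval of 7.53 to 36.1. The fitted log2 fold change was -3.88 (standard error 0.41, adjusted p = 4.15e-06 in edgeR), and 0.469% of tested genes had a lower one. It was -3.45 without senescent replicate 3, the library with 1 count. Since Wnt16 entered the test through the group where it is high, that p and that rank are no support for its difference.

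**Figure D2:**
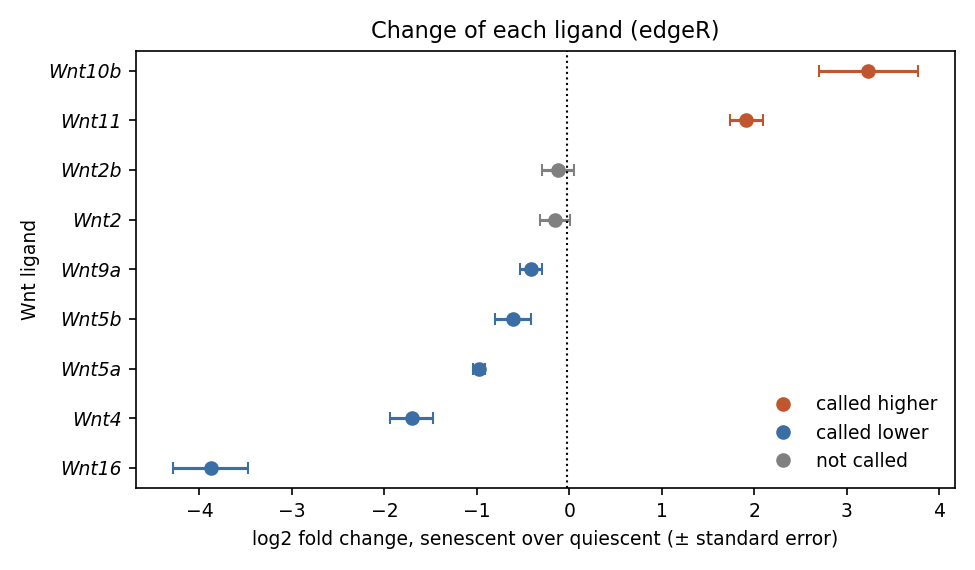
Log2 fold change of each ligand, senescent over quiescent, from edgeR, with bars of 1 standard error; orange is called higher, blue called lower, grey not called, and the dotted line is the median of all tested genes (-0.02). The values run from -3.88 for Wnt16 to 3.24 for Wnt10b.

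Wnt2 and Wnt2b, which act through beta-catenin and together specify the lung from the foregut, were expressed in both groups and called in neither direction. Wnt2 (chromosome 6, 17988940 to 18030585) measured 2.47, 2.84 and 3.27 CPM in quiescent and 2.47, 2.59 and 2.65 CPM in senescent libraries. Wnt2b (chromosome 3, 104945272 to 104961921) measured 4.06, 3.01 and 3.08 against 2.89, 3.65 and 2.80 CPM. The groups overlapped for both genes. Their log2 fold changes were -0.15 (standard error 0.17, adjusted p = 0.417 in edgeR) and -0.12 (standard error 0.18, adjusted p = 0.546 in edgeR), which does not show that the levels were equal. With library totals in place of TMM, where the median of all genes was -0.32, both passed as lower (-0.45 and -0.42, adjusted p = 0.0356 and 0.0440 in edgeR). These totals include the ribosomal rows, which held 79.8% to 82.8% of the counts in a library.

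Wnt9a, known from joint and cartilage development, was the second most abundant ligand of quiescent cells and lies on chromosome 11 (59306928 to 59333552, plus strand). It measured 13.5, 12.9 and 12.4 CPM in quiescent and 9.93, 11.4 and 7.84 CPM in senescent libraries. The groups did not overlap, and the senescent libraries were spread more widely (SD 1.79 against 0.557 CPM). It fell by 0.41 on the log2 scale (standard error 0.12, adjusted p = 0.00934 in edgeR), and by 0.27 without senescent replicate 3 (adjusted p = 0.0156 in edgeR).

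Wnt10b, which favours bone over fat formation from mesenchymal progenitors, was close to the floor in quiescent cells. It lies on chromosome 15 (98770712 to 98778150, minus strand). Its counts were 2, 3 and 1 in quiescent and 14, 11 and 28 in senescent libraries, so it passed the filter only through the senescent group. The level went from 0.0939 ± 0.0419 to 0.936 ± 0.426 CPM (SD, n = 3), and senescent replicate 3 held the most. Summed, 53 senescent counts stood against 6 quiescent counts, a 9.98-fold higher level with a 95% counting interval of 4.29 to 28.4. The fitted log2 fold change was 3.24 (standard error 0.53, adjusted p = 0.000171 in edgeR) and 2.79 without senescent replicate 3. Since Wnt10b entered the test through the group where it is high, that p is no support for its difference.

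The 10 other mouse Wnt genes were at or near 0 in quiescent libraries. Wnt3a had no count in any library, and 1 of the 10, Wnt1, reached the test. Wnt1, the founding ligand of the family, is the neighbour of Wnt10b on chromosome 15, 11.7 kilobases away with no annotated gene between. It had 1, 0 and 0 counts in quiescent and 19, 19 and 28 in senescent libraries, a ratio of 74.6 with a 95% counting interval of 12.9 to 2989.7 (adjusted p = 4.66e-06 in edgeR). It passed the filter on low counts only through the senescent group, so that p is no support for its difference. At a mean of 1.18 CPM in senescent libraries (0.496 CPM per kilobase), Wnt1 met the rule for expressed there. It is not part of the counts, order or sums given for the 9 ligands. The fitted log2 fold change was 5.75, and 7.55 without quiescent replicate 1, the only quiescent library with a count; these fits depend on the prior count and are no bounds. Wnt10a, known from teeth and skin appendages, had 0 counts in the quiescent libraries and 8, 6 and 10 in the senescent ones, at least 9.04-fold higher against a floor of 3 counts over the quiescent group. Its neighbour Wnt6, 6.19 kilobases away, had 4, 2 and 4 against 0, 2 and 1 counts. Wnt7a had 2, 3 and 1 against 8, 5 and 14 counts. The last 3 were under the filter and have no test, and Wnt1, Wnt10a, Wnt6 and Wnt7a were chosen for naming after their values were seen. The remaining 5, Wnt3, Wnt7b, Wnt8a, Wnt8b and Wnt9b, had at most 4 counts in a library.

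Per kilobase and summed over the 9 ligands, the total was 23.2, 23.5 and 23.6 CPM per kilobase in quiescent and 16.2, 16.99 and 15.7 in senescent libraries. The group means were 23.5 ± 0.194 and 16.3 ± 0.669 (SD, n = 3), a quiescent to senescent ratio of 1.44. Without Wnt5a the sums were 9.29 ± 0.314 and 9.09 ± 0.484, a ratio of 1.02. That near-equal remainder holds changes in both directions: Wnt11 went from 0.790 to 2.97 and Wnt10b from 0.0276 to 0.275 CPM per kilobase, while Wnt9a went from 3.88 to 2.92, Wnt4 from 0.887 to 0.274, Wnt16 from 0.508 to 0.0335 and Wnt5b from 1.12 to 0.734. The make-up of the sum differed between the groups. Wnt5a gave 60.7%, 61.4% and 59.1% of the sum in quiescent libraries and 47.3%, 44.4% and 40.7% in senescent ones. Wnt11 gave 3.40%, 3.51% and 3.20% and then 15.2%, 15.4% and 24.5%. Wnt16 went from shares of 1.60% to 2.65% to shares of 0.0746% to 0.297%. These shares are a description and were not tested.

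**Figure D3:**
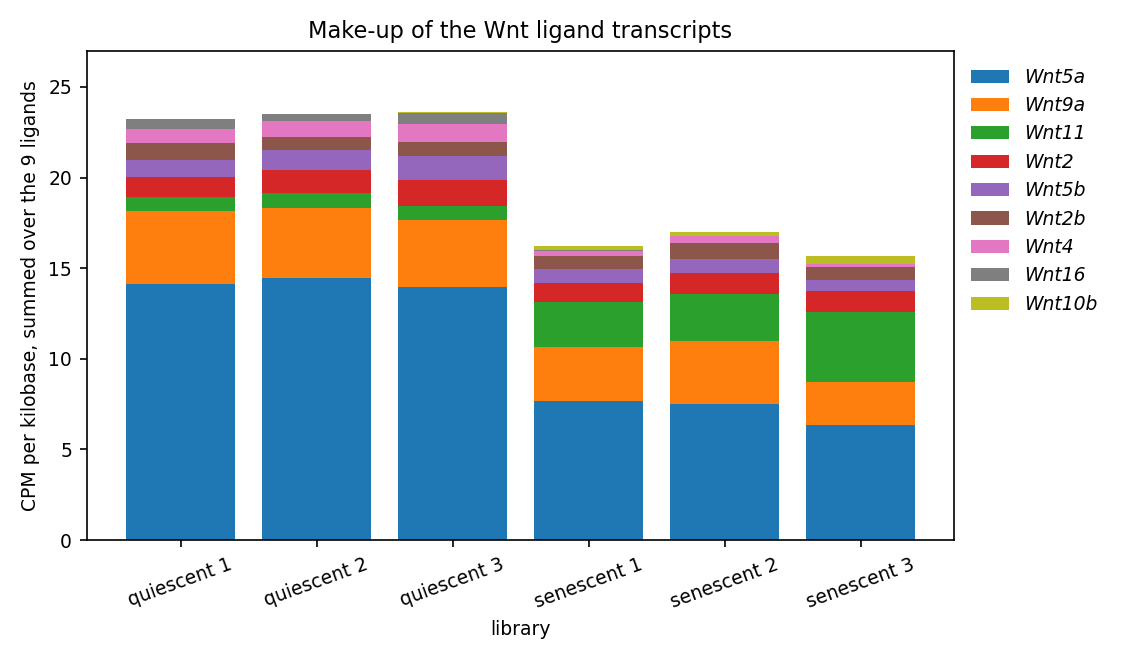
CPM per kilobase of exon stacked over the 9 ligands, 1 bar per library. The bars of the quiescent libraries reach 23.2 to 23.6 and those of the senescent libraries 15.7 to 16.99; the Wnt5a part is smaller and the Wnt11 part larger in the senescent libraries.

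The ligands differed within the senescent group as well. Against the mean of the other senescent libraries, senescent replicate 3 was higher by 0.95 and 0.60 on the log2 scale for Wnt10b and Wnt11. For Wnt16, Wnt4, Wnt9a, Wnt5b and Wnt5a it was lower, with differences of -0.95, -0.72, -0.43, -0.29 and -0.25. These log2 CPM values include a prior count, on average 2 counts added to each value. It shrinks the differences of ligands with few counts most, so the sizes are not comparable across ligands. For all 7 called ligands this library lay on the far side of the other senescent libraries, as it did for 6916 of all 10474 called genes (66.0%). Some of these differences rest on few counts, such as 1 against 4 and 3 for Wnt16 and 33 against 39 and 36 for Wnt5b. Wnt2 (0.07) and Wnt2b (-0.20) were the ligands without a call. Without senescent replicate 3 there were still 2 ligands higher and 5 lower, with smaller log2 fold changes for all 7. The same library stood apart over all genes, and its part in the size of the ligand changes is given by the values without it.

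For 3 ligands the genes with the most similar pattern were sought among 10353 other tested genes. These had a mean log2 CPM of at least 0 in the fit, and gene models with provisional names were left out. On that scale Wnt10b was at -3.13 and Wnt16 at -1.98, so genes as low as these ligands were not searched. Likeness was the smallest root mean square distance between centred log2 CPM values, with the same prior count, over the 6 libraries. Nearest to Wnt5a were Lipa (0.0316), Nedd4 (0.0360) and Acat1 (0.0374), with log2 fold changes of -1.01, -0.95 and -0.95. Nearest to Wnt10b were Chac1 (0.183), Lratd2 (0.204) and Rnd1 (0.217), with changes of 2.12, 2.45 and 2.40. Nearest to Wnt16 were Tnfsf13b (0.231), Pimreg (0.244) and Fam13c (0.253), with changes of -3.37, -3.17 and -3.01. With 6 libraries in 2 groups, this measure mostly follows the size of the group difference after the prior count is added. The genes named for Wnt10b and Wnt16 changed less than these ligands did in the fit (3.24 and -3.88).

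The genes that act on Wnt ligands and carry their signal were grouped by role, and each list is read against the median of all tested genes (-0.02) and the shares of 36.7% higher and 37.8% lower. Of 10 tested genes that acylate, carry, return or inactivate the ligands, 6 were higher and 2 lower, with a median log2 fold change of 0.27. Porcn, the acyltransferase, had 59, 59 and 64 counts in quiescent and 34, 37 and 19 in senescent libraries. It fell by 0.83 on the log2 scale (standard error 0.24, adjusted p = 0.00899 in edgeR) and by 0.55 without senescent replicate 3. The ligand carrier Wls was at 352 ± 18.1 CPM in quiescent and 343 ± 14.8 CPM in senescent libraries (SD, n = 3), overlapping between groups and not called (adjusted p = 0.601 in edgeR), but lower under library totals (-0.33). Notum, the secreted enzyme that removes the lipid, went from 7, 9 and 4 counts to 17, 23 and 16 (log2 fold change 1.65), and passed the filter on low counts only through the senescent group. Tmed5, a cargo receptor of the early secretory pathway, rose by 0.67, and Snx3 and Vps29, which help return Wls from endosomes, by 0.63 and 0.37. Tmed10 fell by 0.31. The increase of Vps29 was lost under library totals (0.07), where the list held 3 higher and 4 lower genes.

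Receptors were mostly lower. Of 8 tested Frizzled genes 7 were lower and 1 higher (median -0.57). Fzd8 fell from 50.8 to 11.8 CPM, Fzd4 from 56.5 to 14.0 CPM and Fzd2, a receptor for Wnt5a, from 110.0 to 53.0 CPM, while Fzd3 rose from 14.9 to 25.7 CPM under every scaling tried. Fzd5, chosen after its values were seen, fell by 0.31, a call lost without quiescent replicate 1 or 2, and likewise on dropping senescent replicate 1 or 2 (adjusted p from 0.0750 to 0.0929, edgeR). Of 9 co-receptors 7 were lower and 1 higher (median -0.82), with Reck at -1.89, Ptk7 at -1.11 and Ryk at -0.86 on the log2 scale. The receptors of Wnt5a differed in direction: Ror2 rose from 24.9 to 35.1 CPM (0.50, and 0.20 under library totals), and Ror1, chosen after its values were seen, fell from 26.7 to 15.2 CPM (-0.82). Of 4 tested R-spondin receptors and ligases that clear Frizzleds, 2 were higher and 2 lower (median -0.09). Lgr4 fell by 0.58, and Znrf3 rose by 0.39, a call lost under library totals (0.10). At lower levels Lgr5 had 23, 28 and 18 counts in quiescent and 7, 3 and 2 in senescent libraries, and Lgr6 had 5, 4 and 5 against 69, 84 and 143. Each passed the filter only through the group where it is high, and both were chosen after their values were seen. Of 11 tested inhibitors and R-spondins 8 were lower and 2 higher (median -1.53), with Sfrp2 at -4.28, Rspo1 at -4.19, Dkk3 at -1.76 and Kremen1, a membrane receptor of Dkk proteins, at 0.67, and Dkk2 up from 8.64 to 24.4 CPM.

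**Figure D4:**
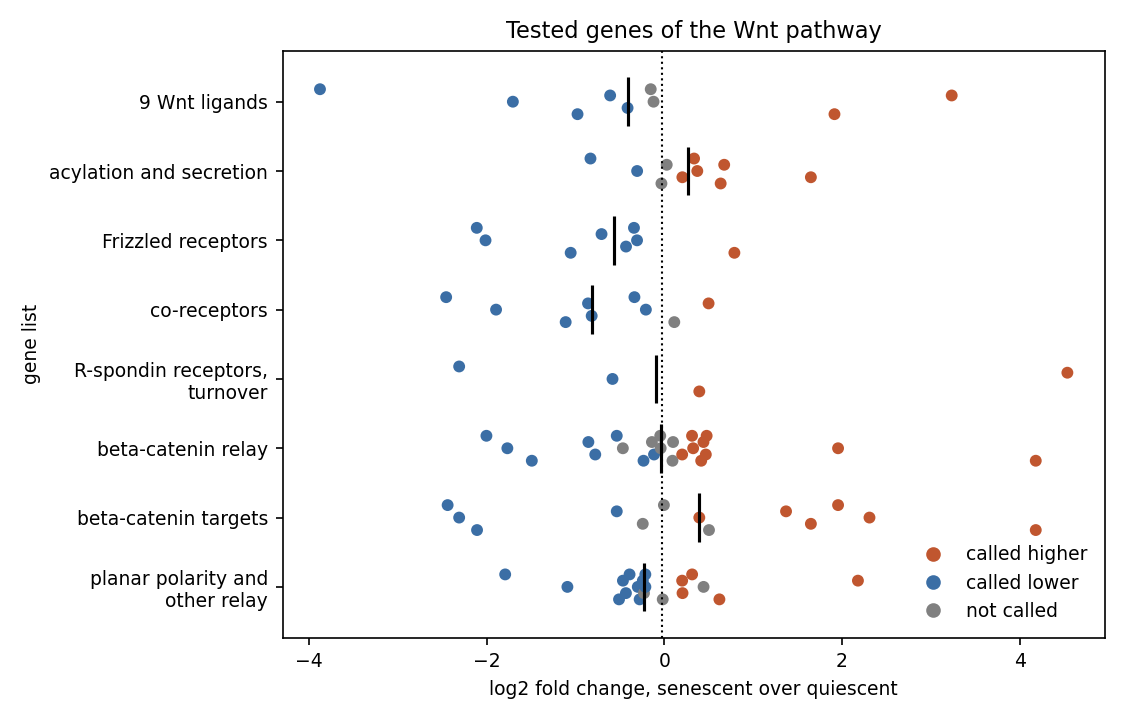
Log2 fold changes, senescent over quiescent, of every tested gene in 8 lists of the Wnt pathway. Each point is a gene, orange called higher, blue called lower, grey not called. A gene that stands in several lists is shown in each. Black bars are list medians and the dotted line is the median of all tested genes (-0.02); the Frizzled and co-receptor medians are -0.57 and -0.82.

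In the beta-catenin relay 9 of 23 genes were higher and 8 lower (median -0.04), near the background. Among its DNA-binding factors Tcf7l2 fell from 113 to 28.1 CPM and Tcf7l1 from 55.5 to 19.7 CPM. Lef1 went from 7, 4 and 2 counts to 75, 56 and 84, and Tcf7 from 38, 36 and 39 to 120, 103 and 167; both were called higher and were chosen after their values were seen. Lef1 passed the filter on low counts only through the senescent group. These 4 directions held under every scaling tried. Amer1, a scaffold of the beta-catenin destruction complex, fell by 1.77. The increases of Dvl1 (0.48), Tnks2 (0.47) and Ctnnb1 (0.44) were lost under library totals (0.18, 0.17 and 0.14), where 2 genes of the list were higher and 14 lower. Of 13 tested target genes 6 were higher and 4 lower (median 0.39). The target list shares Axin2, Lef1 and Tcf7 with the relay list. It shares Notum, Rnf43, Znrf3, Lgr5 and Dkk1 with the other lists, so any call among these genes counts in each list. Axin2, a widely used readout of the pathway, fell by 0.54 from 79, 108 and 96 counts to 44, 60 and 68 (adjusted p = 0.0166 in edgeR). That call was lost in DESeq2 (adjusted p = 0.0508) and in edgeR without quiescent replicate 2 (0.0648), quiescent replicate 3 (0.0558) or senescent replicate 1 (0.0772). Nkd2 rose from 12.3 to 60.9 CPM and Nkd1 fell from 38.0 to 8.81 CPM, both inhibitors that bind Dishevelled. Apcdd1 fell by 2.44 and Myc rose by 1.37. Of 19 tested genes of planar cell polarity and other relays independent of beta-catenin, 5 were higher and 11 lower (median -0.23), with Prickle1 at -1.79, Dact3 at -1.09 and Prickle2 at -0.51. Nfatc1 rose by 2.18, and the smaller increases of Nfatc4 (0.31) and Camk2g (0.21) were lost under library totals, where 1 gene of this list was higher. Camk2g also lost its call under upper quartile scaling and without quiescent replicate 1.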

How the data were processed

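Ribosomal RNA-depleted total RNA from 6 samples was sequenced as paired reads of 100 bp from a directional kit, per the labels' protocols. Whole-number read counts for each gene symbol are what the authors deposited. The submitters' processing notes name the build mm10, edgeR 3.32.1 and limma 3.46.0 without a role; the sources used here do not give the aligner, the counter or the use of strand. The repeat count table was not used.

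All genes were fitted together in edgeR 4.0.16 (R 4.3.3): low genes removed with filterByExpr (minimum count 10), TMM scaling, a robust quasi-likelihood fit with group as its term, and Benjamini-Hochberg adjustment over 14065 genes at 0.05. The 3 ribosomal rows were kept in the fit and left out of the CPM totals. Standard errors are the log2 fold change over the square root of F. Alternatives used DESeq2 1.42.0, limma 3.58.1 (voom), other filters and scalings, and each library left out. GENCODE M21 (GRCm38, the assembly mm10 names) gave positions and exon lengths for 24366 of 25239 symbols. Counting intervals are exact at 95% and, like floors, cover counting error only, since reads carry no molecular identifiers. The procedure was tested on simulated data with changes set in a small share of genes well above the low-count filter. That does not cover ligands with few counts or data in which most genes differ.

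All 9 ligands are named; from each pathway list, up to 3 called genes in each direction with the largest change and a mean log2 CPM of at least 0 in the fit, plus Porcn, Wls, Notum and Axin2. Other genes are given where stated. Likeness was sought for the most abundant ligand and the called ligands with the highest and lowest log2 fold change. The ligands and lists were chosen with earlier results of these data known.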

Additional observations from a re-analysis of the deposited data

How the results depend on the processing

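Under the alternatives tried, no called ligand changed direction; Wnt2b, not called, moved from -0.12 to 0.02 without quiescent replicate 1. Wnt4, Wnt5a, Wnt9a, Wnt11, Wnt10b and Wnt16 stayed called wherever tested at an adjusted p under 0.05. For Wnt10b and Wnt16 this is no support for a difference, as each passed the main filter only through the group where it is high. Ligands called lower numbered 4 to 5 without any one library and 7 under library totals; 2 were called higher without any one library, and 1 at a minimum count of 50, where fewer genes were tested. Library totals gave 2952 higher genes of all tested against 5158 and moved the median of all genes from -0.02 to -0.32. They also gave 3 higher and 4 lower secretion genes, 1 higher R-spondin receptor or turnover gene, 2 higher and 14 lower relay genes and 1 higher polarity gene, and turned Camk2g to -0.10 and Invs to -0.10, neither called. Upper quartile scaling gave 2 higher polarity genes, RLE scaling 2 higher co-receptor genes, no filter 2 higher Frizzled genes, and a minimum count of 50 gave 1 lower R-spondin receptor or turnover gene. Leaving out libraries gave 1 to 2 higher co-receptor genes. The cause was not tested beyond the scaling or filter itself.

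With the replicate number as a block, 5124 genes were higher and 5281 lower, with 2 and 5 ligands. The labels do not say whether same-numbered libraries are paired. Their deviations from the group means correlated at 0.0512, -0.0101 and 0.0579, and those of differently numbered libraries at -0.101 to 0.0562. Not every library correlated best with its own number. With 3 libraries per group these values cannot decide whether a pairing exists. Ligands with under 10 counts in a library, Wnt10b and Wnt16, are limited by depth.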
